A study of Mus musculus with 12 samples.

Results

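The libraries described here are the 6 of 12 that came from hairpin-carrying derivatives of the immortalised mouse pancreatic stellate line ImPSC-1, split by the P number in their names. Libraries with a P number of 14 or less (3 libraries) were compared with libraries at 15 or more (3 libraries). The shCtrl line carried a control hairpin vector named PLKO.1 in a genotype labelled WT and gave 1 library each at P 14, 15 and 16. The shKitl line carried the hairpin sh2KitL against Kitl, labelled as a knock down, and gave 1 library each at P 13, 14 and 15. The low class therefore held shCtrl P 14 and shKitl P 13 and P 14, and the high class held shCtrl P 15 and P 16 and shKitl P 15. Both lines are stable derivatives of the same parent line and grew in DMEM with serum and pyruvate, and polyA-selected RNA was sequenced. The other 6 libraries came from lines overexpressing Egfp (P 17, 18 and 19) or Kitl (P 18, 19 and 20), share no sample with the split and were used as a separate reading of the same genes. What P stands for is not given in the labels. In each line the P numbers run in the order of the replicate numbers, and culture dates and cell density are not given, so that these cannot be told apart from P. No label states that libraries of a line are from separate cultures, and p-values then reflect nothing beyond how these samples spread, which could be technical. Whether a line is 1 clone or a pool is not given either.

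Pancreatic stellate cells belong to the mesenchyme of the organ. They hold retinoids while quiescent and lay down collagen once activated. Cells kept in culture divide, and dividing cells express genes for DNA replication, mitosis and the making of ribosomes. The tumour suppressor p53 switches on cell cycle inhibitors such as Cdkn1a, and the lysosome is the compartment in which proteins and lipids are broken down. In bulk RNA, fewer cells of a type and less RNA per cell cannot be told apart.

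The hairpin libraries held 24979742 to 28831163 counts in genes. ERCC spike-in RNA took between 0.446% and 0.662% of the counts. Mitochondrially encoded transcripts took 1.43% to 1.71% of the counts in the low class and 1.05% to 1.19% in the high class, without overlap, and 21741 to 22373 genes had a count in the low class against 20636 to 21005 in the high class. Stellate and fibroblast genes were present in every library, among them Vim, the intermediate filament vimentin, at 2008, 2708 and 2813 CPM in shCtrl and 2060.1, 1432 and 2159 CPM in shKitl (CPM are counts scaled to a common library size). Vim is not typical of its list. It rose between the P classes (log2 0.38, not called), while 12 of the 17 tested markers were separated downwards in both lines (list median -1.26). Des was near the floor, at 0.644 and 0.821 CPM in shCtrl P 15 and P 16. Kitl, the targeted gene (ENSMUSG00000019966, chromosome 10, 100015630 to 100100416, GRCm38), stood at 73.6, 75.2 and 77.9 CPM at P 14, 15 and 16 in shCtrl and at 24.9, 24.7 and 30.3 CPM at P 13, 14 and 15 in shKitl. The lines did not overlap in Kitl. Between the P classes Kitl had a log2 difference of 0.17 (SE 0.10, adjusted p = 0.282), and it did not pass the test.

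The comparison of high with low P numbers asked which genes differ by P number inside both hairpin lines. All called members of the DNA replication list (6 of 30 tested) and the mitosis list (8 of 30) were higher at P 15 or more, against 5.14% of all genes tested. So were those of the ribosome assembly list (27 of 60), but that list was put together after values were seen. All called members of the list of p53 targets and cell cycle inhibitors (15 of 28) and of the lysosome list (12 of 26) were lower. The same held for collagens (4 of 20) and for retinoid and lipid storage (6 of 19), against 7.17% lower over all genes tested. Calls downwards only were not particular to these lists, as TGF-beta and YAP targets (3 of 23) and cytokines (3 of 25) had them too. Of 15009 genes tested with the line as a term, 1847 (12.3%) passed an adjusted p of 0.05 (edgeR's quasi-likelihood test with Benjamini-Hochberg adjustment, here and below). At P 15 or more 771 were higher (5.14%) and 1076 were lower (7.17%). The lower genes moved further: their median log2 difference was -1.20 against 0.58 for the higher ones, and 650 lower but 57 higher genes passed an absolute log2 difference of 1. Over all genes tested the median was -0.04. All 1847 had P classes that did not overlap inside either line and moved the same way in both, where 26.8% of all genes tested were separated in this way upwards and 29.8% downwards.

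The number of calls rested on single libraries. It came to 0 without shCtrl P 14, 0 without shKitl P 15, 2 without shCtrl P 16 and 371 without shCtrl P 15, and rose to 4627 without shKitl P 13 and 2914 without shKitl P 14. Without shCtrl P 14 or without shKitl P 15 one line holds libraries of 1 class only, and the difference rests on the other line. No gene passed an adjusted p of 0.01, and the smallest adjusted p was 0.0170. DESeq2 called 3384 genes (1649 higher and 1735 lower). The split depended on the scaling: 370 higher and 1457 lower genes passed with library totals, which moved the median of all genes to -0.15, and 330 higher and 880 lower with spike-in totals, which moved it to 0.09. On TPM values with limma the split was 272 and 828 genes with a pseudocount of 1, and 300 and 892 with 0.1. Called genes kept their sign under each of the 20 other fits in which they were tested, which says little, since their classes were separated 1 way inside both lines.

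**Figure D1:**
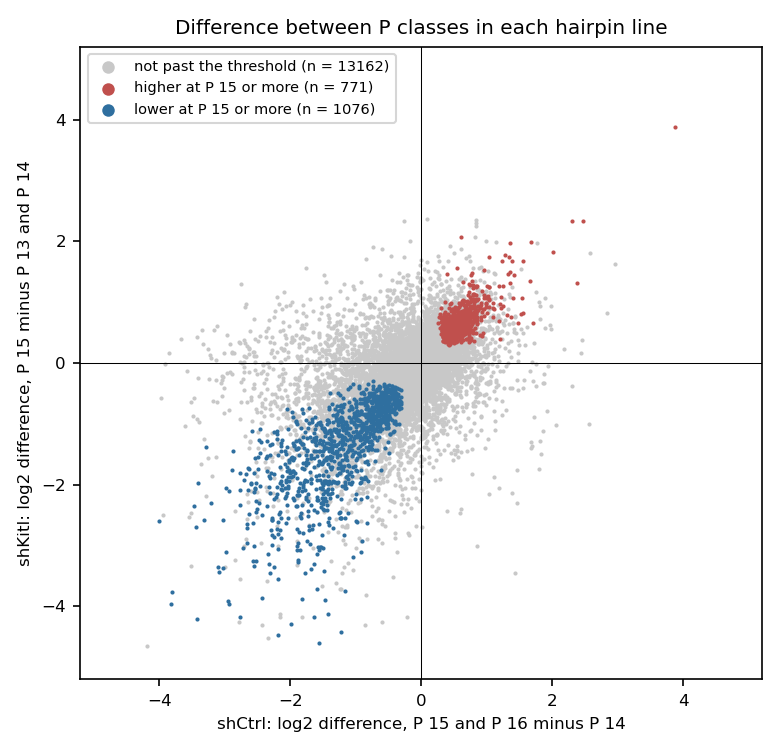
Each point is 1 of the 15009 genes tested, with its log2 difference between P classes in shCtrl on the x axis and in shKitl on the y axis, and colours mark the 771 higher and 1076 lower genes. The coloured points lie in the quadrants where both lines moved the same way, and the lower genes reach further from 0.

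Fewer genes passed with the P number as a straight slope than with the split. In a fit of log2 level on P number with the line as a term, 15 genes passed (0 with a rising and 15 with a falling slope), and 2733 had an unadjusted p under 0.05. Of the called genes, 162 of 771 higher and 385 of 1076 lower genes were in the order of the P number in both lines. Part of that order is fixed by the call, since all called genes had separated classes in both lines. Among all genes separated in this way, 915 of 4022 upwards and 1236 of 4473 downwards were in that order. The step from P 14 to P 15, which crosses the class boundary and so is part of what the split measures, had a median log2 of 0.50 for the higher and -0.96 for the lower genes in shCtrl and of 0.72 and -1.25 in shKitl. Steps inside a class are held small in these genes by how they were called. From P 15 to P 16 in shCtrl the same genes moved on by 0.11 and -0.26. From P 13 to P 14 in shKitl they moved the other way, by -0.19 and 0.09, and their median level was farthest from the high class in shKitl P 14. Over all genes tested, 29.9% moved by more than 0.5 on the log2 scale from P 13 to P 14 in shKitl and 15.4% from P 15 to P 16 in shCtrl, against 29.5% from P 14 to P 15 in shCtrl and 42.6% in shKitl.

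Libraries that share a P number across the lines were not level either. At P 14 the higher genes stood lower in shKitl than in shCtrl by a median log2 of -0.43 and the lower genes stood higher by 0.50. At P 15 these differences were -0.18 and 0.17. With only the 4 libraries at P 14 and P 15, 1755 genes passed (607 higher and 1148 lower), of which 1152 were among the 1847. With the class in the fit, 102 genes differed between the lines (38 higher and 64 lower in shKitl), and 53 of these also differed between the classes.

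Promoters of lysosomal and mitotic genes are shown first, because members of these lists were called in 1 direction each. Lysosomal genes are known for the E-box CACGTG, the core of the element read by the TFEB family, and mitotic genes for the cell cycle homology region, written TTTGAA. The 4 sequences are the 250 bases before the RefSeq start (GRCm38.p6) in lower case. Capitals mark CACGTG in the lysosomal and TTTGAA in the mitotic genes, on either strand. The genes were chosen after their values were seen, among called list members with 1 start and a match.
Ctsd, minus strand, chr7:142387828-142388077: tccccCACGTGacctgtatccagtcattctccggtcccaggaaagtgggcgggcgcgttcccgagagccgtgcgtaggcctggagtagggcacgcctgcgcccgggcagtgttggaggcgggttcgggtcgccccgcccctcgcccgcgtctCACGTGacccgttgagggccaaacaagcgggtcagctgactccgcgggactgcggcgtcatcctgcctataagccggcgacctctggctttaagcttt
Gaa, plus strand, chr11:119267713-119267962: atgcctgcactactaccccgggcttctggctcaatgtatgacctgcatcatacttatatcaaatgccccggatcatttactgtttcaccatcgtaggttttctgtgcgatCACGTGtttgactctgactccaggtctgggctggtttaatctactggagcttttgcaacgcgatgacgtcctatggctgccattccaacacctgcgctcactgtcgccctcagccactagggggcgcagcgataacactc
Top2a, minus strand, chr11:99024190-99024439: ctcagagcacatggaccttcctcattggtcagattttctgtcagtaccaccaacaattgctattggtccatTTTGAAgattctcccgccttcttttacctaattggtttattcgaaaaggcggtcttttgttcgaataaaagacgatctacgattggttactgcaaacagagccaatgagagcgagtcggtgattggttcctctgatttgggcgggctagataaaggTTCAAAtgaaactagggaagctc
Espl1, plus strand, chr15:102296043-102296292: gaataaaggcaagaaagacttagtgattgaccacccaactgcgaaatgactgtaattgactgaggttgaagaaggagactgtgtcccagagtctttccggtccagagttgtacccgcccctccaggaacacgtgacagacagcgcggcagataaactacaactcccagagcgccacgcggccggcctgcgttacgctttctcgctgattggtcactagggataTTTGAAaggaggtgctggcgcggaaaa
Ctsd encodes the protease cathepsin D and has 2 matches. Gaa encodes the lysosomal alpha-glucosidase. Top2a encodes topoisomerase II alpha, with 1 match on each strand, and Espl1 encodes separase, which cuts cohesin at anaphase. The Espl1 window also holds CACGTG, left in lower case.

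Promoters were searched for 7 motifs on both strands in this window, for the 10703 tested genes with a RefSeq promoter. CACGTG was found in 7 of 19 lysosomal promoters (36.8%), in 9.88% of the promoters of genes tested and in 6.86% of all promoters in the table. TCACGTGA, which holds CACGTG, was found in 3 of the 19 (15.8%), in 1.78% of genes tested and in 0.907% of all. TTTGAA was found in 10 of 25 mitotic promoters (40.0%), in 12.8% of genes tested and in 18.3% of all, and its variant TTCGAA in 2 of 25 (8.0%), in 2.11% of genes tested and in 1.55% of all. TTTCGCGC, an E2F element, was found in 4 of 24 replication promoters (16.7%), in 0.561% of genes tested and in 0.3% of all. Among genes called by P class, CACGTG stood in 10.4% of called lower and 11.7% of called higher promoters, and TTTGAA in 12.7% of called higher and 12% of called lower promoters. TTTCGCGC stood in 5 of 597 called higher promoters (0.838%) and 0 of 807 called lower ones. TGACTCA, the AP-1 element, stood in 6.44% of the 807 called lower and 2.18% of the 597 called higher promoters, in 4.26% of genes tested and in 5.16% of all. GGGCGGG, the GC box, stood in 50.3% and 51.1% of them, in 47.5% of genes tested and in 25.7% of all. A match is a description of letters, not of binding.

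Targets of p53 and cell cycle inhibitors were the list with the highest share of calls: 15 of 28 tested members were lower at P 15 or more and 0 were higher. The share lower was 53.6%, against 7.17% of all genes tested, and the median log2 over the 28 was -0.68. Cdkn1a, which encodes the cyclin-dependent kinase inhibitor p21 (ENSMUSG00000023067, chromosome 17, 29090976 to 29100727), stood at 230.2, 107 and 80.5 CPM at P 14, 15 and 16 in shCtrl and at 363, 347 and 91.8 CPM at P 13, 14 and 15 in shKitl. The 3 low-class libraries held more than 2 times the level of any high-class library (log2 -1.62, SE 0.19, adjusted p = 0.0185). Eda2r, a death receptor of the TNF family, was at 46.2, 22.8 and 15.6 CPM in shCtrl and 75.1, 84.4 and 27.3 CPM in shKitl (log2 -1.41, SE 0.17, adjusted p = 0.0185). Its classes did not overlap. Pmaip1, which encodes the BH3-only protein NOXA, was at 28.1, 14.7 and 13.5 CPM and 28.6, 35.2 and 14.5 CPM in the same order (log2 -1.06, SE 0.13, adjusted p = 0.0185). Fas, the death receptor, was at 10.5, 4.79 and 3.03 CPM and 19.6, 18.4 and 4.89 CPM (log2 -1.69, SE 0.23, adjusted p = 0.0186), with both lines near the same level at P 15. Chosen after their values were seen, Mdm2, the ubiquitin ligase of p53, was at 238, 174 and 168 CPM and 299, 291 and 158 CPM (log2 -0.69, SE 0.13, adjusted p = 0.0265). Cdkn2a, the locus of p16 and ARF, was at 407, 277 and 237 CPM and 424, 595 and 299 CPM (log2 -0.72, SE 0.16, adjusted p = 0.0379). Ccng1, Bbc3, Ddit4l, Btg2, Phlda3, Cdkn2b, Trp53inp1, Sesn2 and Cdkn1b were the other members called lower, and the 15 ran from -1.98 to -0.53. Summed over the list, levels were 2534, 1911 and 1744 CPM in shCtrl and 3093, 3305 and 1836 CPM in shKitl. Without shCtrl P 15, 8 members passed, and 0 without shCtrl P 14, shCtrl P 16 or shKitl P 15. With spike-in totals 9 passed.

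Genes of the cell cycle went the other way. In the mitosis list 8 of 30 tested members were higher and 0 lower (median log2 0.45), and in the DNA replication list 6 of 30 were higher and 0 lower (median 0.34), against 5.14% higher over all genes. Ccna2, which encodes cyclin A2 (ENSMUSG00000027715, chromosome 3, 36564865 to 36572150), was at 220.0, 323 and 361 CPM at P 14, 15 and 16 in shCtrl and 176, 146 and 313 CPM at P 13, 14 and 15 in shKitl (log2 0.80, SE 0.13, adjusted p = 0.0234). The 3 high-class libraries all lay above the low-class ones. Ccnb1, cyclin B1, was at 152, 205 and 225 CPM and 120.3, 98.1 and 193 CPM (log2 0.66, SE 0.13, adjusted p = 0.0294). Cenpa, the centromere histone, had a log2 difference of 0.53 and Prc1, a spindle midzone protein, one of 0.56. Top2a, chosen for its promoter, was at 595, 736 and 765 CPM in shCtrl and 362, 359 and 593 CPM in shKitl (log2 0.53, SE 0.13, adjusted p = 0.0429), so that shCtrl P 14 and shKitl P 15 were at the same level. Espl1 was at 121, 145 and 153 CPM and 74.2, 64.1 and 129 CPM (log2 0.60, SE 0.15, adjusted p = 0.0461). Among replication genes, Mcm5, a subunit of the MCM helicase, was at 242, 335 and 348 CPM and 236, 194 and 367 CPM (log2 0.64, SE 0.13, adjusted p = 0.0303). Cdc6, which loads that helicase, was at 74.2, 100.3 and 101 CPM and 44.5, 32.4 and 74.2 CPM (log2 0.69, SE 0.17, adjusted p = 0.0427). Pole, the leading-strand polymerase, had a log2 difference of 0.52. The classes were separated upwards inside both lines in 27 of 30 mitotic and 28 of 30 replication members, against 26.8% of all genes tested. With library totals 2 mitotic and 1 replication members passed, and with spike-in totals 2 and 3. Without shCtrl P 15 none passed, and the same held without shCtrl P 14, shCtrl P 16 or shKitl P 15. Without shKitl P 13 the counts were 14 and 15, and without shKitl P 14 they were 15 and 9.

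Genes of ribosome biogenesis formed the list with most calls upwards, but that list was put together after values were seen and is not independent evidence of its direction. Of 60 members 27 were higher (45%, against 5.14% of all genes tested) and 0 lower, with a median log2 of 0.68. Mybbp1a, a nucleolar MYB-binding protein, was at 553, 1043 and 1167 CPM in shCtrl and 444, 293 and 865 CPM in shKitl (log2 1.12, SE 0.18, adjusted p = 0.023). Dis3, a catalytic subunit of the RNA exosome (ENSMUSG00000033166, chromosome 14, 99075206 to 99099770), was at 60.3, 114 and 134 CPM and 44.1, 41 and 87.3 CPM (log2 1.04, SE 0.11, adjusted p = 0.0185). Tsr1, a ribosome assembly factor, was at 89.8, 169 and 188 CPM and 81.3, 54.6 and 133 CPM (log2 0.98, SE 0.16, adjusted p = 0.0234), and Utp4, of the small subunit processome, had a log2 difference of 0.73. In all 4 genes the lowest library was shKitl P 14 and the highest shCtrl P 16. The list summed to 7745, 12577 and 13954 CPM in shCtrl and 7293, 4788 and 10555 CPM in shKitl. Without shCtrl P 15, 1 member passed, and 0 without shCtrl P 14, shCtrl P 16 or shKitl P 15. Without shKitl P 13 it was 56 members and without shKitl P 14 it was 47.

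**Figure D2:**
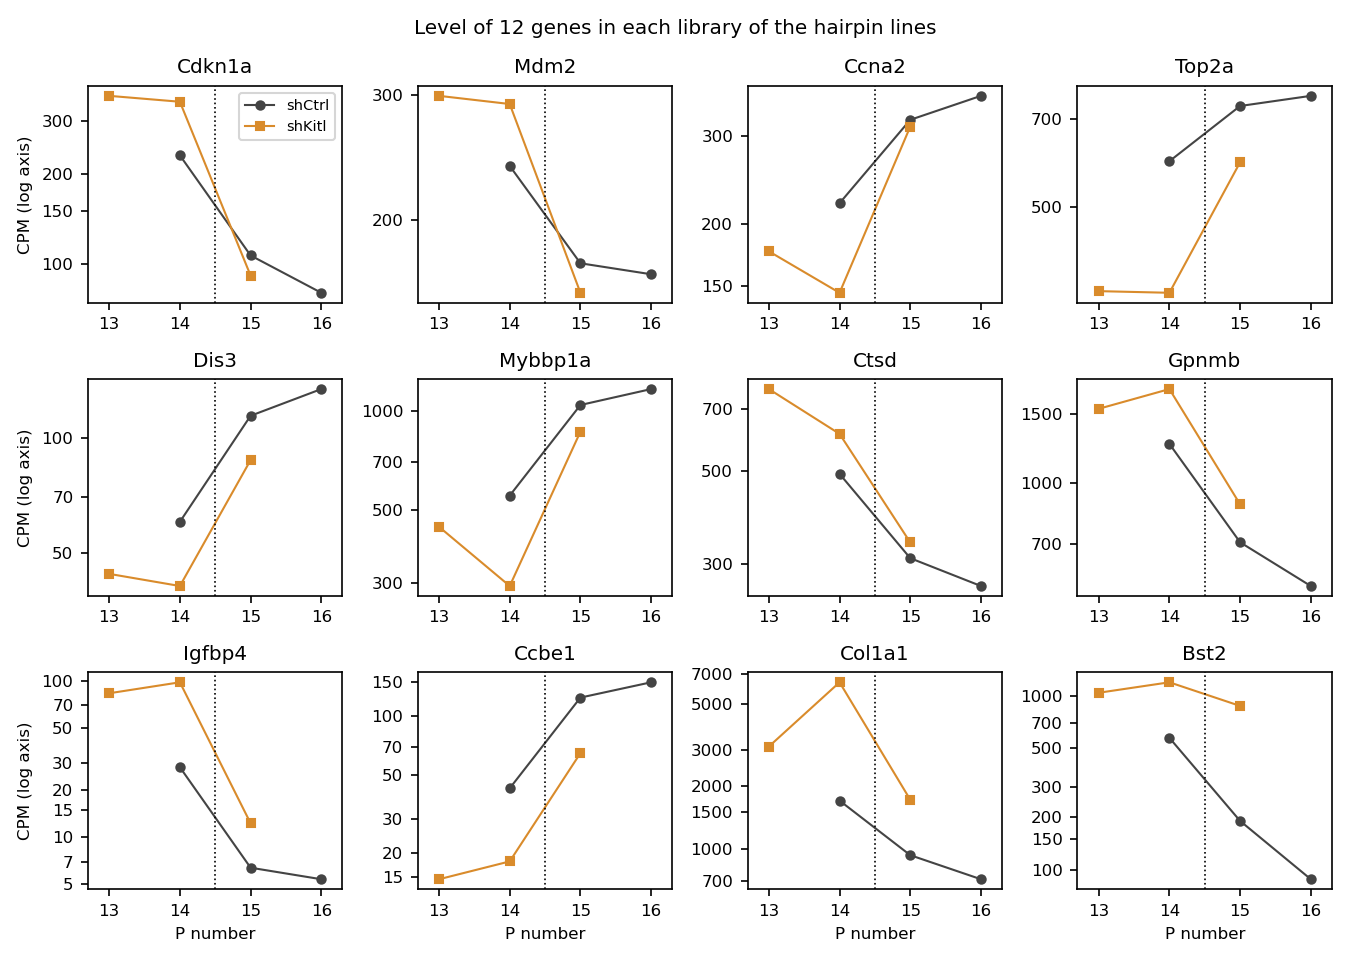
Each panel gives 1 gene, with the P number on the x axis, CPM on a logarithmic y axis, 1 point per library and the dotted line between the P classes. Cdkn1a falls from 230 to 80.5 CPM in shCtrl and from 363 to 91.8 CPM in shKitl, and Bst2, in the last panel, falls in shCtrl and stays near its level in shKitl.

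Lysosomal genes were lower: 12 of 26 tested members were called lower (46.2%, against 7.17% of all genes tested) and 0 were higher. The median log2 over the list was -0.53. Hexa, the alpha subunit of beta-hexosaminidase, was at 166, 109.5 and 92.5 CPM in shCtrl and 199, 220.4 and 105 CPM in shKitl (log2 -0.85, SE 0.13, adjusted p = 0.0205). Gpnmb, a glycoprotein of lysosomes and melanosomes, was at 1258, 706 and 546 CPM and 1545, 1735 and 882 CPM (log2 -0.95, SE 0.15, adjusted p = 0.0216). Ctsd (ENSMUSG00000007891, chromosome 7, 142375911 to 142388038), whose promoter is shown above, was at 491, 309 and 265 CPM and 782, 612 and 337 CPM (log2 -0.91, SE 0.15, adjusted p = 0.0234). Ctsa, cathepsin A, had a log2 difference of -0.84, and Gaa was at 435, 305 and 248 CPM and 475, 683 and 317 CPM (log2 -0.76, SE 0.18, adjusted p = 0.0403). In Hexa, Gpnmb, Ctsd and Gaa every low-class library was above every high-class one. Grn, Ctsh, Npc2, Neu1 and Ctsl were among the other members called lower, and the 12 ran from -1.49 to -0.54. The list summed to 11555, 8662 and 7845 CPM in shCtrl and 13678, 14486 and 9628 CPM in shKitl. With spike-in totals 3 passed, and without shCtrl P 15 it was 2. None passed without shCtrl P 14, shCtrl P 16 or shKitl P 15, and 20 passed without shKitl P 13.

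Genes of the extracellular matrix were lower where they were called, apart from a few proteases and inhibitors. In the remodelling list 11 of 36 were lower (30.6%) and 4 higher (11.1%), with a median log2 of -0.65. Over all genes tested 7.17% were lower and 5.14% higher. Tgm2, the crosslinking transglutaminase 2 (ENSMUSG00000037820, chromosome 2, 158116402 to 158146436), was at 39.2, 11.1 and 6.4 CPM in shCtrl and 122, 108 and 17.2 CPM in shKitl (log2 -2.45, SE 0.24, adjusted p = 0.0185). Timp3, a matrix-bound inhibitor of metalloproteinases (ENSMUSG00000020044, chromosome 10, 86300372 to 86349506), was at 140.3, 61.4 and 39.7 CPM and 418, 469 and 88.9 CPM (log2 -1.90, SE 0.26, adjusted p = 0.0195). Adamts5, an aggrecanase, was at 102, 50.7 and 38.5 CPM and 262, 316 and 94.8 CPM (log2 -1.40, SE 0.17, adjusted p = 0.0185), so that shCtrl P 14 and shKitl P 15 were close in level. The stromelysins Mmp3 and Mmp10 had log2 differences of -3.50 and -3.63. Adam12, a membrane metalloprotease, was higher, at 12.5, 34.6 and 39.3 CPM in shCtrl and 5.22, 7.6 and 11.2 CPM in shKitl (log2 1.20, SE 0.23, adjusted p = 0.0288), as were Timp1 and Loxl4. Among collagens 4 of 20 were lower (20%) and 0 higher (median -0.69). Col12a1, a fibril-associated collagen, was at 157, 62.9 and 46 CPM and 248, 216 and 55.7 CPM (log2 -1.79, SE 0.18, adjusted p = 0.0185). Col1a1, the main fibrillar collagen (ENSMUSG00000001506, chromosome 11, 94936224 to 94953042), was at 1705, 929 and 711 CPM and 3111, 6359.6 and 1722 CPM (log2 -1.26, SE 0.31, adjusted p = 0.0441), with shKitl P 14 standing above all others. Col1a2 did not pass, at 2254, 1812 and 1678 CPM and 2626, 6988 and 3029 CPM (log2 -0.52, adjusted p = 0.358). Among glycoproteins and proteoglycans 5 of 32 were lower (15.6%) and 0 higher. Lower members included Dcn, the proteoglycan decorin, at 60, 20.5 and 19.8 CPM and 159.7, 299 and 26.8 CPM (log2 -2.34, SE 0.46, adjusted p = 0.0386), and Efemp1 with a log2 difference of -2.01. In the remodelling list, 21 lower members passed without shKitl P 13, 7 without shKitl P 14, 8 lower and 0 higher members without shCtrl P 15, and 0 of either kind without shCtrl P 14, shCtrl P 16 or shKitl P 15.

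Retinoid and lipid storage genes, the textbook marks of quiescent stellate cells, were lower in 6 of 19 and higher in 0 (median log2 -0.75). The share lower was 31.6%, against 7.17% of all genes tested. Dhrs3, a retinal reductase (ENSMUSG00000066026, chromosome 4, 144892827 to 144928209), was at 8.77, 1.97 and 0.259 CPM in shCtrl and 36.9, 54 and 2.35 CPM in shKitl (log2 -3.64, SE 0.69, adjusted p = 0.0377). Lpl, lipoprotein lipase, was at 88, 42.1 and 32 CPM and 103, 83.9 and 34.7 CPM (log2 -1.34, SE 0.15, adjusted p = 0.0185). Plin4 and Plin3, coats of lipid droplets, had log2 differences of -1.27 and -0.75, and Aldh1a1 was among the other lower members. The 3 low-class libraries of Lpl lay above the 3 high-class ones. Of 17 stellate and fibroblast markers 5 were lower and 0 higher, namely Des, the intermediate filament desmin (log2 -1.62), S100a4 (-0.52), Dcn, Col1a1 and Pdgfrb, the PDGF receptor beta (-1.05). The retinoid and lipid count was 4 without shCtrl P 15 and 0 without shCtrl P 14, shCtrl P 16 or shKitl P 15.

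**Figure D3:**
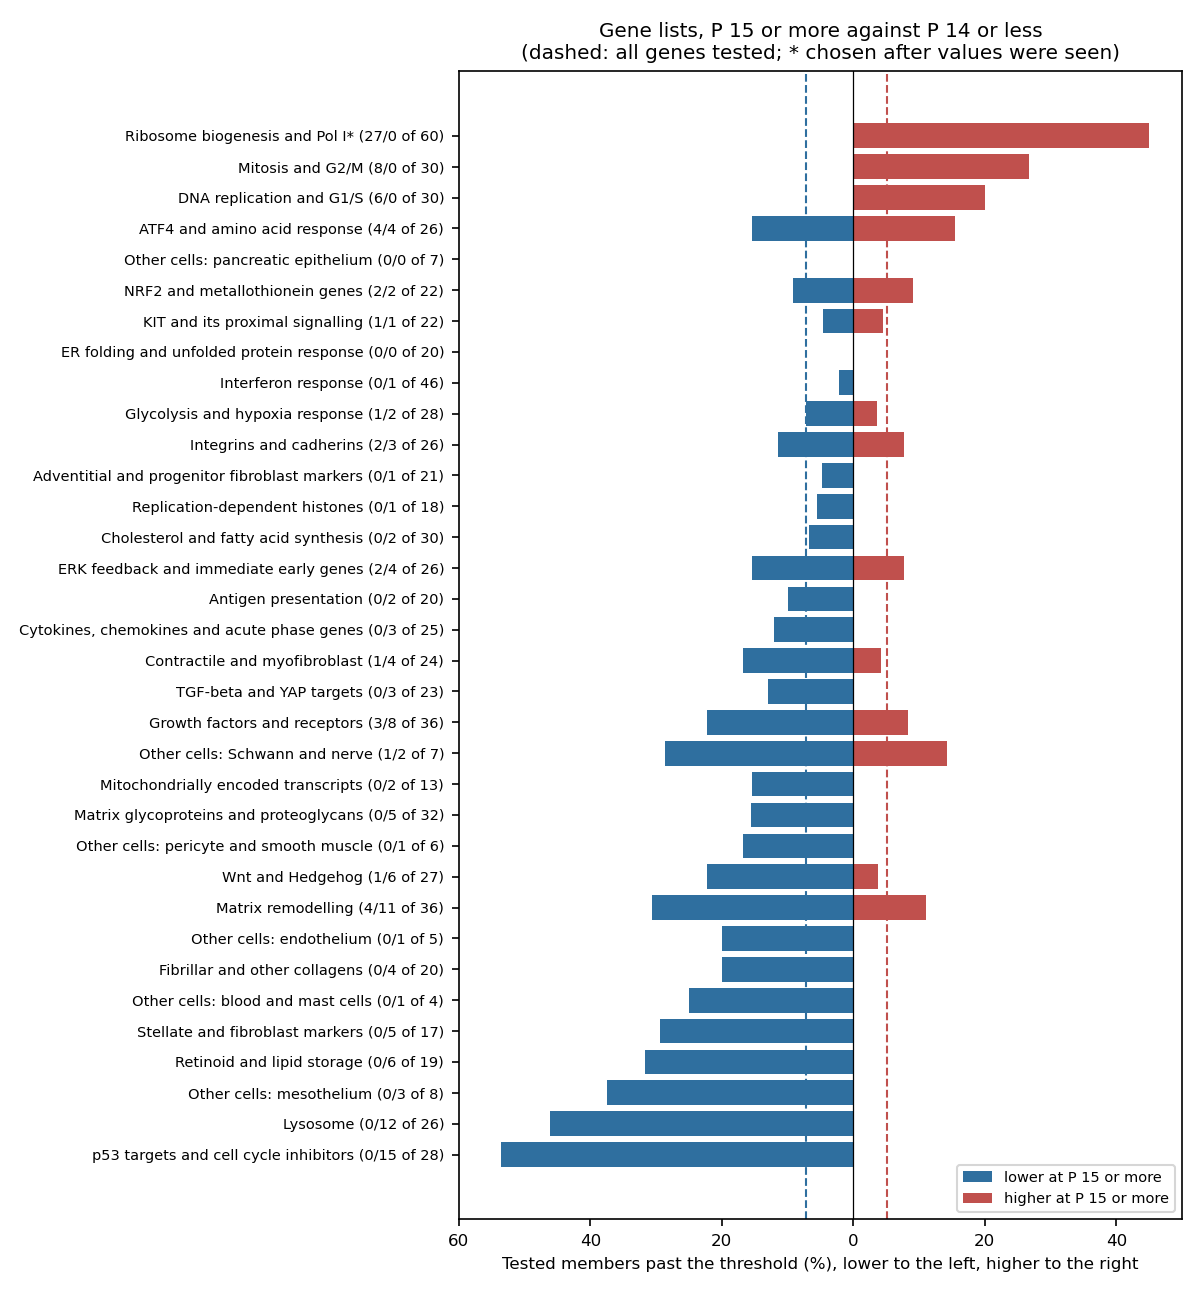
Bars give the percent of tested members of each gene list that passed an adjusted p of 0.05, lower to the left and higher to the right, with the counts (higher/lower of tested) beside the name and dashed lines at the 7.17% and 5.14% of all genes tested. The p53 and lysosome lists reach furthest to the left and ribosome biogenesis furthest to the right.

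Secreted signals and their inhibitors were also among the lower genes. Igfbp4, an inhibitor of insulin-like growth factors (ENSMUSG00000017493, chromosome 11, 99041244 to 99054392), had the smallest p of all genes tested. It was at 28.1, 6.4 and 5.4 CPM in shCtrl and 83.5, 98.2 and 12.3 CPM in shKitl (log2 -2.57, SE 0.18, adjusted p = 0.017). In the growth factor list 8 of 36 were lower (22.2%) and 3 higher (8.33%), against 7.17% and 5.14% of all genes tested. Bmp4, a ligand of the BMP pathway, was at 5.57, 2.05 and 1.34 CPM and 23.3, 22.3 and 2.84 CPM (log2 -2.38, SE 0.34, adjusted p = 0.0196). Met, the receptor of hepatocyte growth factor, was higher at 126, 198 and 219 CPM and 89.2, 101 and 154 CPM (log2 0.71, SE 0.11, adjusted p = 0.0205). In the Wnt and Hedgehog list 6 of 27 were lower and 1 higher, with Boc, a Hedgehog co-receptor, at -1.90, Sfrp1 and Frzb, secreted Wnt inhibitors, at -1.74 and -2.27, and Rspo3, a Wnt enhancer, at -1.63. Gas6, the ligand of the TAM receptors (ENSMUSG00000031451, chromosome 8, 13465374 to 13494490), was at 55.9, 13.2 and 5.83 CPM in shCtrl and 122, 101 and 14.2 CPM in shKitl (log2 -2.77, SE 0.32, adjusted p = 0.0185). Cxcl12, the chemokine of stromal cells, was at 393, 241 and 208 CPM and 530.5, 624 and 214 CPM (log2 -1.12, SE 0.18, adjusted p = 0.0216), and Gdf15, a stress-induced cytokine that p53 can switch on, was at 33.5, 12.4 and 7.99 CPM and 53.8, 38.2 and 15.1 CPM (log2 -1.66, SE 0.21, adjusted p = 0.0185).

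Called immediate early genes went both ways. Of 26 members of the ERK list, 4 were lower (15.4%) and 2 higher (7.69%), against 7.17% and 5.14% of all genes tested. Fos was at 43.6, 15.8 and 8.56 CPM in shCtrl and 85.1, 118 and 12.4 CPM in shKitl (log2 -2.43, SE 0.40, adjusted p = 0.0275), and Fosb had a log2 difference of -2.27. Fosl1, another member of the same AP-1 family, was higher, at 88.8, 148 and 154 CPM and 65.5, 43.9 and 103 CPM (log2 0.84, SE 0.16, adjusted p = 0.0288), and so was Dusp5, a phosphatase that acts on ERK (0.88). In the KIT signalling list 1 of 22 was higher, the kinase Akt1 (0.53), and 1 lower, the transcription factor Stat5a (-0.89). At 4.55% each, these were below the shares over all genes tested.

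Among all genes that the naming rule could take, the largest rises included Ccbe1, Tll1, Klhl1, Foxc2, Tmem171, Zic5, Nipal1, Gap43, Spire2, Krt80 and Adam12. Ccbe1, a secreted factor of lymphatic growth, was at 42.9, 125 and 149.7 CPM in shCtrl and 14.7, 18.1 and 64.9 CPM in shKitl (log2 1.83, SE 0.14, adjusted p = 0.0182). It rose in the order of the P number in both lines. Tll1, a BMP1-like metalloprotease (ENSMUSG00000053626, chromosome 8, 64014931 to 64206271), was at 11, 53 and 62.2 CPM and 11, 5.13 and 18.7 CPM (log2 1.81, SE 0.41, adjusted p = 0.0461), with most of its rise in shCtrl. The forkhead factor Foxc2 was at 10.3, 23.9 and 26.6 CPM and 3.56, 2.33 and 10.1 CPM (log2 1.52, SE 0.21, adjusted p = 0.0185), and the zinc finger factor Zic5 was at 5.5, 14.7 and 14.9 CPM and 4.55, 4.07 and 11.9 CPM (log2 1.44, SE 0.15, adjusted p = 0.0185). Gap43, a growth cone protein, was highest in shKitl P 15, at 16.7, 25.3 and 25.9 CPM and 7.26, 9.37 and 34.9 CPM (log2 1.34, SE 0.31, adjusted p = 0.0435). Log2 differences of other genes were 1.57 for Klhl1, 1.49 for Tmem171, 1.34 for Nipal1, 1.23 for Spire2, which encodes an actin nucleator, and 1.22 for the keratin Krt80.

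Under the same rule, which asks for a mean of at least 5 CPM in the higher class, the largest falls were in Gdpd2, C4b, Dhrs3, Mmp10, Mmp3, Cpz, Ces2e, Serping1, Lbp, Mgp, Sept4 and Gpx3. Gdpd2, a phosphodiesterase gene (ENSMUSG00000019359, chromosome X, 100729873 to 100738895), was at 0.824, 0.0403 and 0.0432 CPM in shCtrl and 2.29, 15.9 and 0.336 CPM in shKitl (log2 -4.60, SE 1.09, adjusted p = 0.0488), so that its fold change leaned on shKitl P 14. C4b, complement component 4, was at 2.83, 0.644 and 0.13 CPM and 12.9, 38 and 1.34 CPM (log2 -3.66, SE 0.76, adjusted p = 0.0399), and Serping1, the C1 inhibitor, was at 14.1, 3.34 and 0.735 CPM and 49.2, 38.4 and 3.96 CPM (log2 -3.13, SE 0.52, adjusted p = 0.0288). Mmp3 (ENSMUSG00000043613, chromosome 9, 7445822 to 7455975) was at 12.2, 2.62 and 0.216 CPM and 45.5, 78.1 and 4.29 CPM. Both complement genes and Mmp3 fell at each step in shCtrl and were lowest at P 16. The carboxypeptidase gene Cpz had a log2 difference of -3.42, the carboxylesterase gene Ces2e one of -3.31, and Lbp, for the lipopolysaccharide-binding protein, one of -3.07. Mgp, an inhibitor of calcification, was at -3.07, the septin gene Sept4 at -3.05 and Gpx3, the secreted glutathione peroxidase, at -3.00. Several of these genes had under 1 CPM in the high class, where the fitted size depends on few counts.

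Interferon genes had lower values at the higher P numbers in shCtrl and differed in sign among themselves in shKitl, and the difference between the lines did not pass its test. Between the P classes 1 of 46 tested members passed (2.17%, below the 7.17% lower over all genes tested). This was Ifit2, at 106, 56 and 47.1 CPM in shCtrl and 173, 201 and 147 CPM in shKitl (log2 -0.69, SE 0.17, adjusted p = 0.0458). The list median was -1.07 for both lines together, -2.62 in shCtrl and 0.22 in shKitl. All 46 members had a negative difference in shCtrl, and 34 of 46 had a positive one in shKitl. Bst2, the antiviral factor tetherin, was at 572, 191 and 88.2 CPM in shCtrl and 1038, 1192 and 872 CPM in shKitl (log2 -2.14 in shCtrl and -0.35 in shKitl), and Irgm1, an interferon-induced GTPase, was at 243, 80.4 and 38.7 CPM and 415, 424 and 369 CPM. Neither passed the test. Summed over the list, levels were 5896, 1911 and 912 CPM in shCtrl and 7971, 10833 and 10065 CPM in shKitl. The test of the difference between the lines gave an unadjusted p under 0.05 for 36 of the 46 members, against 507 of all 15009 genes tested. The lowest adjusted p in the list was 0.9999. Genes within a library are not independent, and this test had 2 residual degrees of freedom, so the 36 are a description. In antigen presentation 2 of 20 were lower (10%, near the share over all genes tested) and 0 higher. They were B2m, the light chain of MHC class I, at 908, 465 and 384 CPM and 1569, 1831 and 912 CPM (log2 -1.0, SE 0.14, adjusted p = 0.02), and H2-T22 (-0.74). The median of this list was -1.67 in shCtrl and -0.40 in shKitl, and no member passed the test of the difference between the lines.

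The difference between P classes was tested for a difference between the lines over all 15009 genes. No gene passed (0% called), with 507 at an unadjusted p under 0.05, and DESeq2 called 30. The number called by edgeR depended on the libraries too: it was 872 without shKitl P 13, 941 without shKitl P 14, 113 without shCtrl P 15 and 42 without shCtrl P 16. It was 194 with spike-in totals, which moved the median difference between the lines over all genes to 0.71.

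**Figure D4:**
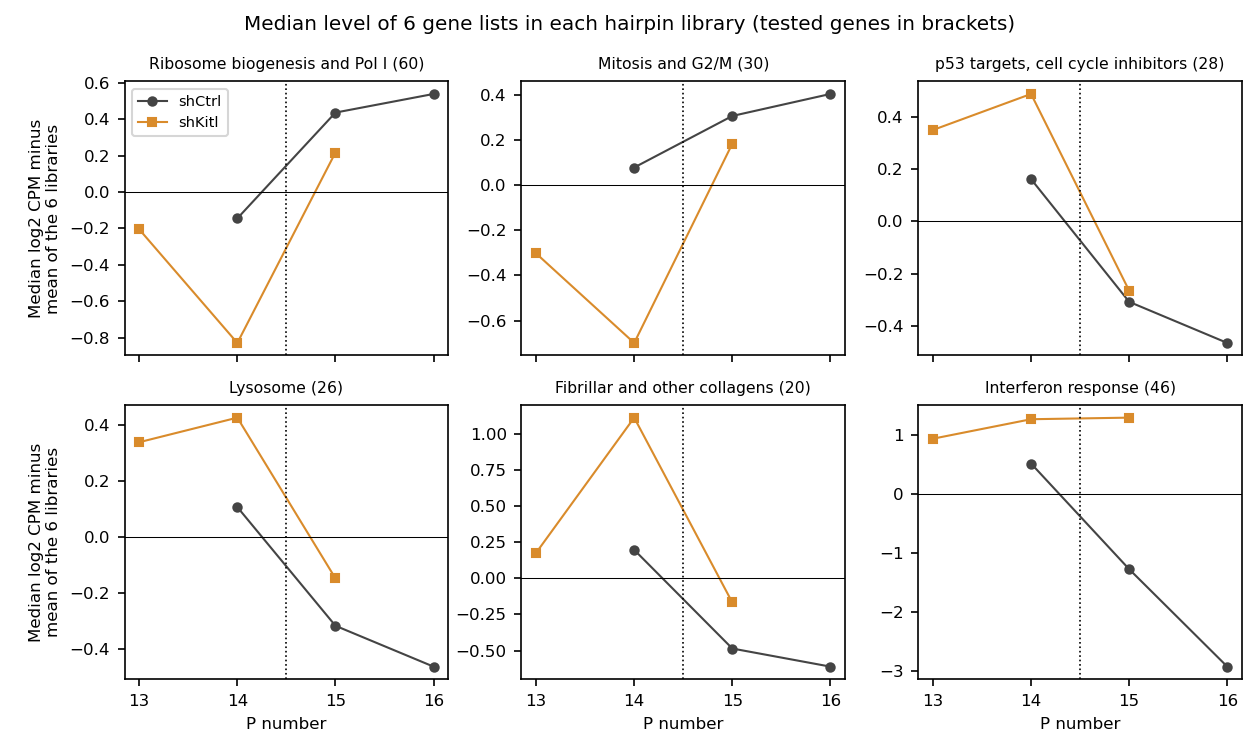
Each panel gives the median over a list's tested members of log2 CPM minus the gene's mean over the 6 libraries, by P number and line, with the dotted line between the classes. Ribosome biogenesis is lowest in shKitl P 14 (-0.83), collagens are highest there (1.11), and the interferon list falls to -2.92 in shCtrl P 16 while all 3 shKitl libraries lie between 0.94 and 1.30.

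Other lists had few calls or calls in both directions, where 5.14% of all genes tested were higher and 7.17% lower. Of the genes for ATF4 and amino acid response 4 of 26 were higher, among them Mthfd2, a mitochondrial folate enzyme (0.70), and Slc7a1, an arginine transporter (0.60), and 4 were lower, among them Ddit3, for the stress factor CHOP (-0.61). In the glycolysis and hypoxia list 1 of 28 was higher, Egln1, an oxygen sensor (0.56), and 2 lower, with Adm, adrenomedullin, at -2.47. Contractile genes gave 4 lower and 1 higher of 24, with Mylk, myosin light chain kinase, at -1.34 and Lmod1, leiomodin, at -2.07 among the lower and Myocd, the cofactor myocardin, at 2.28 as the higher one. TGF-beta and YAP targets gave 3 lower of 23, cytokines 3 lower of 25, cholesterol and fatty acid synthesis 2 lower of 30, and mitochondrially encoded transcripts 2 lower of 13, with mt-Co1, a subunit of cytochrome oxidase, at -0.65. NRF2 and metallothionein genes gave 2 higher and 2 lower of 22, integrins and cadherins 2 higher and 3 lower of 26, replication-dependent histones 1 lower of 18, and adventitial markers 1 lower of 21, which was Gas6. In the ER folding list 0 of 20 passed in either direction.

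Markers of other cells were followed beside these results. Over all genes tested 7.17% were lower and 5.14% higher. In lists of 4 to 8 tested genes 1 call is already a larger share, so the counts below say little. In the mesothelium list 3 of 8 tested members were lower and 0 higher: Gpm6a, a membrane glycoprotein, at 1.85, 0.523 and 0.648 CPM in shCtrl and 18.2, 12 and 1.75 CPM in shKitl (log2 -2.47, SE 0.40, adjusted p = 0.023), Nkain4 at -2.91 and Bnc1, basonuclin, at -1.80. Upk3b, a uroplakin and a defining marker, stood at 1.98, 0.0805 and 0.994 CPM in shCtrl and 39.4, 29.7 and 1.42 CPM in shKitl (log2 -3.50, adjusted p = 0.0732). Among the hairpin libraries Upk3b was high in shKitl P 13 and P 14 alone. It was higher still in Kitl_OE, at 148, 193 and 96.8 CPM at P 18, 19 and 20, and so was Gpm6a, at 124, 210 and 144 CPM. Summed levels of the list were 82.0 to 185 CPM in the low class and 101 to 112 CPM in the high class, among them Msln at 60.3, 91.4 and 99.7 CPM in shCtrl and 60.9, 98.1 and 98 CPM in shKitl. Pericyte markers summed to 45.1 to 120 CPM in the low class and 22.1 to 35.2 CPM in the high class (1 of 6 lower), and endothelial markers to 18 to 25.8 CPM and 8.86 to 12.1 CPM (1 of 5 lower, Vwf at -1.76). Schwann and nerve markers gave 2 lower and 1 higher of 7, blood and mast cell markers 1 lower of 4 (Lyz2 at -3.19) and pancreatic epithelium 0 of 7. The pancreatic epithelium list was not absent. It had the largest sum of these lists, at 660 to 1564 CPM in the low class and 812 to 932 CPM in the high class. Ins1, Ins2, Prss1, Cpa1, Pdx1, Ptf1a, Cd3e, Itgam and Sox10 were at 0 counts in all 6 libraries, which allows a level of up to 0.120 CPM in the shallowest (3 counts, for counting error only). The part of the mesothelial, pericyte and endothelial markers in the other results was not tested.

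In the overexpression lines, whose libraries took no part in the split, no gene passed a slope on the P number (0% of 14410 tested, and 80 with an unadjusted p under 0.05 where DESeq2 called 1). The sign could be read for 1819 of the 1847 genes, and 1436 of them (78.9%) sloped the same way as in the hairpin lines. It was 79.8% of the higher and 78.3% of the lower genes, against 59.7% and 58.1% of genes that did not pass. From P 18 to P 20 in Kitl_OE, 87.7% of the higher and 78.3% of the lower genes kept the sign, against 63.6% and 61% of genes that did not pass. From P 17 to P 19 in Egfp_OE it was 58.2% and 60.9%, against 52.2% and 51%. The slopes were small, with a median log2 per P number of 0.06 for the higher and -0.10 for the lower genes. Genes within a library are not independent, so that these shares are descriptions. The second Egfp_OE library, at P 18, stood apart with 1.35% spike-in RNA, and without it the shares were 80.7% and 78.6%. Cdkn1a was at 177, 285 and 162 CPM at P 17, 18 and 19 in Egfp_OE and at 759, 792 and 589.9 CPM at P 18, 19 and 20 in Kitl_OE, and its slope of -0.13 per P number did not pass. Igfbp4 had 82.1, 193 and 40.4 CPM and 561, 669.7 and 295 CPM, a slope of -0.48. Ccna2 had 201, 151 and 205 CPM and 71.4, 60.8 and 105 CPM, a slope of 0.15, and Mybbp1a had 520.4, 228 and 564 CPM and 313, 298 and 423 CPM, a slope of 0.13. Other called genes, picked here for their sign, sloped against their hairpin direction. Gap43 had a slope of -0.32, Plin4 one of 0.13, and Ccbe1 one of -0.01. A test of the slope in the hairpin lines against that in the overexpression lines, added after values were seen, gave 0 of 15271 genes, with 657 at an unadjusted p under 0.05.

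**Figure D5:**
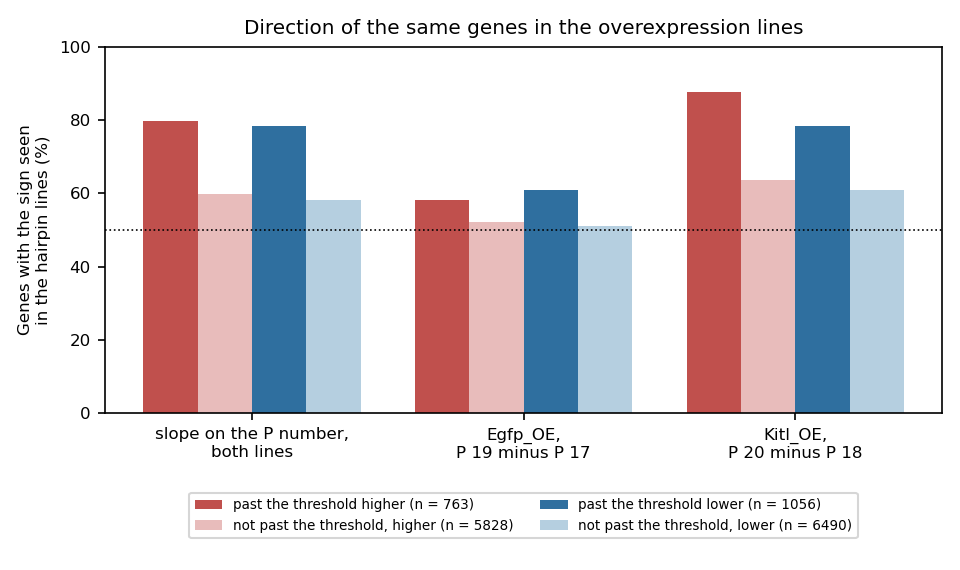
Bars give the percent of genes whose difference in the overexpression lines had the sign seen in the hairpin lines, for genes past the threshold there (dark) and the remaining genes (light). The dark bars reach 79.8% and 78.3% for the slope over both lines and 58.2% and 60.9% in Egfp_OE alone. The light bars there reach 59.7% and 58.1%, and 52.2% and 51%.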

How the data were processed

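PolyA-selected RNA of 12 libraries was sequenced, and the 6 hairpin libraries were analysed here. The authors deposited raw counts of reads in genes. The submitters' processing notes name STAR 2.5.2b, featureCounts, Subread 1.5.2, DESeq2 and GRCm38. The same libraries were also deposited as TPM values. No source used here gives the annotation release or the strand setting, so overlapping, antisense and near-identical genes are uncertain. Of the entries, 49671 were genes, and 92 ERCC spike-ins entered neither library sizes nor tests.

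The model was fitted to the counts in edgeR 4.0.16 (R 4.3.3) after filterByExpr and TMM scaling: a robust quasi-likelihood fit with terms for line and P class (3 residual degrees of freedom, biological coefficient of variation 0.188), with Benjamini-Hochberg adjustment over all genes tested. Added fits tested the class by line and, in the 6 overexpression libraries, a slope on the P number. The method was tested on simulated data. DESeq2 1.42.0 and limma 3.58.1 gave alternatives. Coordinates came from GENCODE M21 and promoters from RefSeq (GRCm38.p6). Genes were named by rule: the 12 highest and 12 lowest log2 differences among called genes with a mean of at least 5 CPM in the higher class, no overlap inside either line and no predicted gene model, up to 4 members of each list with the smallest p, and Kitl. Mdm2, Cdkn2a, Gaa, Espl1, Top2a, Vim, Col1a2, Msln and list members named without a value were chosen after values were seen. The groups, gene lists and tests were chosen with earlier results of these data known. The replicate numbers were not used to pair libraries. A few named genes are not reported here because they are withheld.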

Additional observations from a re-analysis of the deposited data

How the results depend on the processing

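The count of 1847 genes that differed between P classes moved with the processing. It was 1210 with spike-in totals, 3384 with DESeq2, 1100 and 1192 with limma on TPM with pseudocounts of 1 and 0.1, 15 with a slope on the P number, 649 with all 12 libraries in the fit (95 higher and 554 lower), 0 at an adjusted p of 0.01 and 707 with an absolute log2 difference of at least 1. Leaving out 1 library gave 0 to 4627 genes, and the 2 fits with 0 had 2873 (without shCtrl P 14) and 2528 (without shKitl P 15) genes at an unadjusted p under 0.05. DESeq2 size factors (1907), library totals (1827), limma-voom (1848), no filter (2340), a CPM of at least 5 in 3 libraries (1431), no line term (1457) and the libraries at P 14 and P 15 (1755) stayed within 1.5 times. With the replicate number as a replicate block 0 genes passed, with 2215 at an unadjusted p under 0.05. Deviations of same-numbered libraries from their line means correlated across genes at 0.15, -0.27 and 0.54, and not every library correlated best with its own number. The pair at -0.27, shCtrl P 15 and shKitl P 14, lies in opposite P classes, so these values mix the replicate number with the class. Whether same-numbered libraries share more than a number was not tested. The test of the class by line called 0 genes, 30 with DESeq2, 194 with spike-in totals, 0 as a difference of slopes and 42 to 941 with 1 library left out; it cannot be fitted without shCtrl P 14 or shKitl P 15. The slope in the overexpression lines called 0 genes, 1 with DESeq2, and 0 with spike-in totals, with 2 P classes and with each library left out, where 33 to 1123 genes had an unadjusted p under 0.05. The causes were not tested. Each hairpin library had at least 24979742 counts in genes. Which limits the calls more, depth or the number of libraries, was not tested.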
